A study of Homo sapiens with 16 samples.

Results

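The 10 genes described here are the epidermal growth factor (EGF) receptor family members EGFR, ERBB2 and ERBB3 and the EGF-family ligands AREG (amphiregulin), EREG (epiregulin), HBEGF (heparin-binding EGF-like growth factor), TGFA (transforming growth factor alpha), BTC (betacellulin), EPGN (epigen) and NRG1 (neuregulin 1). They were taken as every probe, controls aside, whose gene name in the array files equals 1 of these symbols. This gave 20 probes of 58201 on the array, for 10 of 42665 gene names. RNA came from 16HBE, a human bronchial epithelial line immortalised with SV40 large T antigen. Its 4 groups were 16HBE-WT with wild-type MET and no agent, 16HBE-WT given HGF (hepatocyte growth factor, the ligand of MET), 16HBE-ex14 with no agent, and 16HBE-ex14 given HGF. The 16HBE-ex14 cells had been edited with CRISPR/Cas9 so that they express METex14, a MET transcript that lacks a juxtamembrane exon, and they were clone F, a single clone. Samples of the 16HBE-WT+HGF group carry YY, not WT, in their titles and were placed there by their description and genotype labels, on which each comparison with 16HBE-WT+HGF rests. All groups had first been kept for 2 h without serum, and HGF was used at 20 ng/ml for 24 h. Each group had 4 arrays, 2 on each of 2 slides. By the study's methods the replicates were cultures of different weeks, and the files do not say which array belongs to which week, so the p values below measure the spread between these arrays. The comparisons share groups, since each of the 4 groups enters a comparison by HGF and a comparison by genotype. The comparisons address how transcript levels differ with HGF and between the METex14 clone and 16HBE-WT, separately and together.

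EGF-family ligands are made as membrane-anchored precursors and are released by metalloproteases, after which they act on the cell that made them or on its neighbours. AREG, EPGN and TGFA bind EGFR, while HBEGF, BTC and EREG bind EGFR and ERBB4, and NRG1 binds ERBB3 and ERBB4. ERBB2 has no known ligand of its own and works as the partner in heterodimers, and ERBB3, whose kinase is weak, signals mainly through such dimers to PI3 kinase. In airway epithelium this system is known for its part in wound repair and in epithelial proliferation, and ERK signalling downstream of receptor tyrosine kinases is known to induce several of the ligands.

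All values below are log2 spot signals minus the 75th percentile of their array, so that 0 is the level of that percentile. They are levels of a probe, not of a molecule count, and the levels of different probes are not compared. A probe counts as called where its adjusted p was under 0.05 with a fold change of more than 1.5. The 75th percentile lay between 138.4 and 259.8 intensity units over the 16 arrays, and 49% to 60.3% of the probes of an array were well above background. It was higher in both 16HBE-ex14 groups (200.5 to 259.8) than in 3 of the 4 16HBE-WT arrays and in every 16HBE-WT+HGF array, and this overall brightness was removed by the scaling. The probe of MET itself had levels of 4.98 ± 0.17 in 16HBE-WT and 5.11 ± 0.15 in 16HBE-ex14 (SD, n = 4 each), which does not test the exon skipping, and the HGF probes were above background on 0 of the 16 arrays. Of 6 markers of bronchial epithelium, 6 were above background on every array, and their summed level ran from 1530 to 2050 times the 75th percentile over all arrays. Of these markers KRT5, a basal cell keratin, fell by 2.31 on the log2 scale with HGF in 16HBE-ex14 and differed by -2.57 between 16HBE-ex14 and 16HBE-WT without HGF, both called. The other 5 epithelial markers were not called in either comparison, and the medians of all 6 were 0.08 and -0.13. Fibroblast markers summed to 0.553 to 1.05 times the 75th percentile in 16HBE-WT and to 0.327 to 0.511 in 16HBE-ex14, with COL1A2, COL3A1 and DCN on 0 arrays above background while LUM was above background on 4 of 4 arrays of each 16HBE-WT group and on 0 of 4 of each 16HBE-ex14 group. Leukocyte markers summed to 0.796 to 1.3 in 16HBE-WT and 0.655 to 1.07 in 16HBE-ex14, with a called difference of -0.98 for CD3E, and endothelial markers to 0.37 to 0.564 and 0.389 to 0.53, with PECAM1 above background on 0 arrays. The part of these marker changes in the results was not tested, and in RNA of a whole culture fewer cells of a kind and less RNA per cell cannot be told apart. Since 16HBE-ex14 was 1 clone, clone and METex14 cannot be told apart either.

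AREG and EREG lie next to each other on chromosome 4 and gave the ligand results described next, so their sequences are shown, with EPGN as the third gene of that cluster. The AREG probe A_33_P3419190 detects 60 bases at chr4:75318293-75318352 of hg19, on the plus strand:

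AREG probe: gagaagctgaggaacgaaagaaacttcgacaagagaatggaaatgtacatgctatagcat

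The 250 bases before the RefSeq start of these 3 genes (GRCh38.p14, plus strand) are chr4:74444886-74445135 for AREG, chr4:74364895-74365144 for EREG and chr4:74308220-74308469 for EPGN. Capitals mark the only match found in them to 3 motifs searched on both strands, the cyclic AMP response element TGACGTCA, the AP-1 motif TGANTCA and the ETS motif CCGGAAG:

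AREG promoter: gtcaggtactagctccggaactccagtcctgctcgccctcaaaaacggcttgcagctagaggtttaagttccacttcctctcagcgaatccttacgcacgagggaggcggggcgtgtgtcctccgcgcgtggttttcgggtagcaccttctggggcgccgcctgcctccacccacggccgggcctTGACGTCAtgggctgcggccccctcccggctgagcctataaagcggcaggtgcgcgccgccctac

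EREG promoter: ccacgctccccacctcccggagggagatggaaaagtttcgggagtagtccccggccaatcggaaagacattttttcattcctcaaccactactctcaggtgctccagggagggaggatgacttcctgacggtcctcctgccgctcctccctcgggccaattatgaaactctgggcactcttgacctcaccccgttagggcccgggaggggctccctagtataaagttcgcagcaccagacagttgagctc

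EPGN promoter: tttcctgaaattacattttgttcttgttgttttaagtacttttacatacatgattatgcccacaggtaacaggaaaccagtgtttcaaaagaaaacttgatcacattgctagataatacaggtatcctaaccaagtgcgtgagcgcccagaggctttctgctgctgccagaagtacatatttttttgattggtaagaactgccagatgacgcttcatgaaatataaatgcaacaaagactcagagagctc

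The AREG match lies 65 to 58 bases before the start. Over 35116 promoters of the same length, 1.65% held the cyclic AMP response element, 6.57% the AP-1 motif and 8.52% the ETS motif. Of the 8 member genes in the promoter table, ERBB2 held 1 AP-1 and 2 ETS matches and the second of the 2 EGFR starts held 2 AP-1 matches, whereas EREG, HBEGF, TGFA, BTC and EPGN held none. A match is a description of the letters only. ERBB3 and NRG1 had no entry.

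The called changes among these 10 genes were rises of ligands and of EGFR in 16HBE-ex14 cells, and no member probe was called lower in any comparison. Some falls passed the limit on limma's adjusted p but not the fold limit. ERBB3 was lower in 16HBE-ex14 with HGF in both genotypes by its brightest probe (-0.52, adjusted p = 0.00606), whereas its dimmest probe did not pass (-0.13, limma adjusted p = 0.74). The dimmer ERBB2 probe was lower there without HGF (-0.48, adjusted p = 0.0251), whereas the brightest ERBB2 probe was not. HGF raised AREG and NRG1 in 16HBE-ex14 cells. Without HGF, 16HBE-ex14 already had more EGFR, AREG, EREG and NRG1 than 16HBE-WT, and with HGF in both genotypes EPGN was called as well as these 4 genes. Of the 20 probes 19 passed the filter on dim probes, and the other, an NRG1 probe (A_22_P00017664), was above background on 0 of 16 arrays. HGF in 16HBE-ex14 gave 5 of 19 member probes called, where 1.99% of all 34600 tested probes were called (1.05% higher and 0.936% lower). HGF in 16HBE-WT gave 0 of 19 in limma, against 0% of all probes, with 4 member probes and 1681 of all probes at an unadjusted p below 0.05. Between the genotypes without HGF 6 of 19 were called against 9.43% of all probes (4.5% higher and 4.93% lower), and between the genotypes with HGF 9 of 19 against 10.8% (5.38% higher and 5.43% lower). Several of these probes belong to the same gene. Counted by the brightest probe of each gene, 2 of 10 members were called with HGF in 16HBE-ex14, against 2.1% of all genes. Between the genotypes 4 of 10 were called without HGF and 5 of 10 with HGF, against 9.25% and 10.6% of all genes. Taken over the tested ligand genes, 7 in number, the median log2 difference with HGF was 0.58 in 16HBE-ex14 and 0.27 in 16HBE-WT, where the median of all genes was 0.06 and 0.04. The balance of higher and lower calls depends on the scaling. Between the genotypes without HGF the share of higher calls among all called probes was 47.7% here, 70.3% with scaling to spike-in probes and 71.5% with scaling to the array median. For HGF in 16HBE-ex14 it was 52.8% here, 37.2% with the spike-in probes and 24.5% with the array median.

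**Figure D1:**
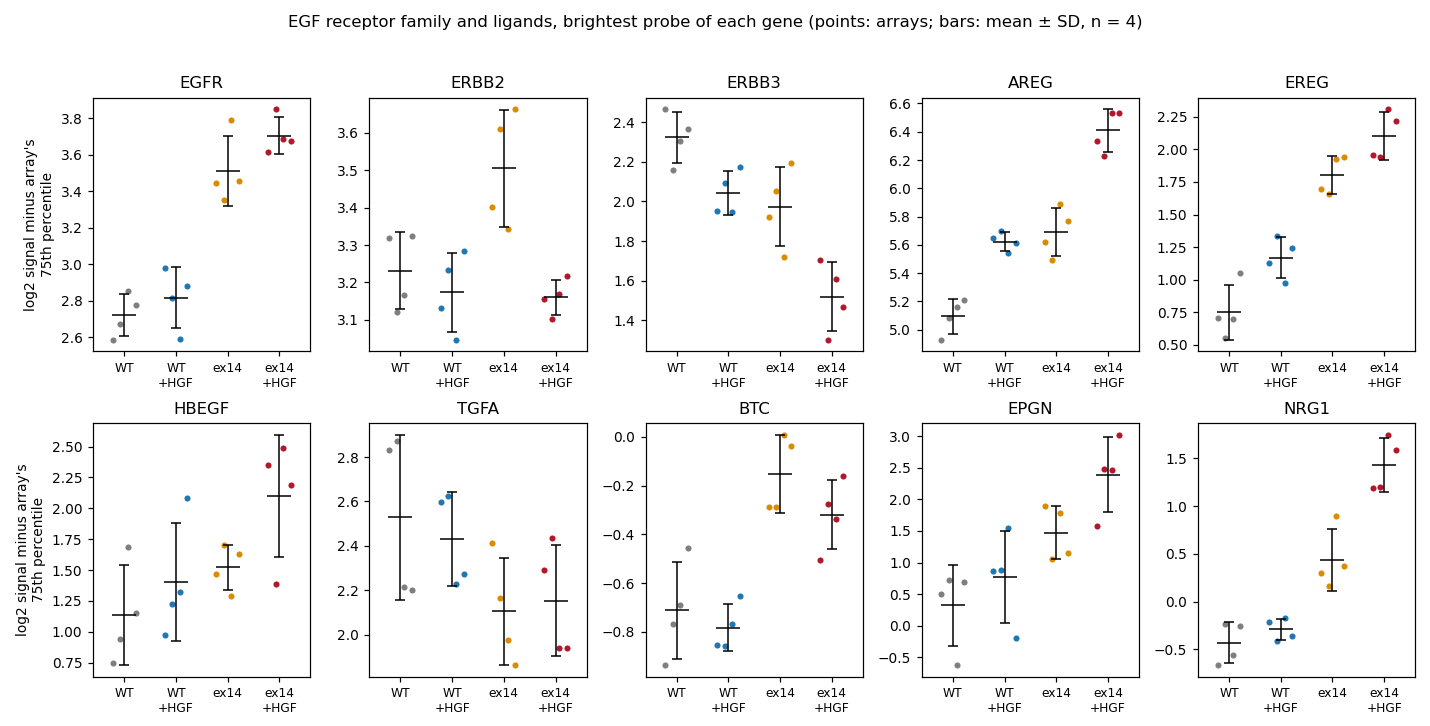
Level of the brightest probe of each gene on each array (log2 signal minus the array's 75th percentile) in the 4 groups, where points are arrays and bars are mean ± SD of 4 arrays; each panel has its own axis. AREG rose from 5.10 in 16HBE-WT to 6.41 in 16HBE-ex14+HGF, EGFR separated by genotype, and ERBB3 was lowest in 16HBE-ex14+HGF at 1.52.

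AREG, an EGFR ligand first known from epithelial tumour cells, was higher with HGF in both genotypes and rose past both limits in 16HBE-ex14. By its brightest probe (A_23_P259071, chr4:75320518-75320577, hg19) the 16HBE-WT arrays read 4.93, 5.08, 5.16 and 5.21, and the 16HBE-WT+HGF arrays 5.65, 5.70, 5.54 and 5.61. The 16HBE-ex14 arrays read 5.62, 5.49, 5.89 and 5.77, and the 16HBE-ex14+HGF arrays 6.34, 6.23, 6.54 and 6.54. Every HGF array was thus above every array of the same genotype without HGF, and 16HBE-WT+HGF overlapped with unstimulated 16HBE-ex14. The rise in 16HBE-ex14 was 0.72 ± 0.11 on the log2 scale (SE, limma adjusted p = 0.0025), a fold change of 1.65. In 16HBE-WT the difference was 0.53 ± 0.11 (adjusted p = 0.561), not called, although the arrays did not overlap, which was so for 2 of 19 member probes and 2.59% of all probes. Those 2 were the AREG probes. The second AREG probe, whose sequence is given above, rose by 0.66 in 16HBE-ex14 (adjusted p = 0.00268) and differed by 0.45 in 16HBE-WT (adjusted p = 0.57). Averaged over the genotypes, HGF raised AREG by 0.62 ± 0.08 (adjusted p = 0.0015). In this mean response 2 of 19 member probes were called, AREG and 1 NRG1 probe, against 1.12% of all probes (0.63% higher and 0.491% lower). The call in 16HBE-ex14 was lost with scaling to the array median (0.56, adjusted p = 0.0537), with no scaling (0.68, adjusted p = 0.122) and with only the arrays compared in the fit (0.72, adjusted p = 0.0503). The mean response lost its call with scaling to the array median (0.485) or to spike-in probes (0.54), both under the fold limit, and with no scaling (0.575, adjusted p = 0.0582).

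Between the genotypes AREG was 0.59 ± 0.11 higher in 16HBE-ex14 without HGF (adjusted p = 0.00131) and 0.79 ± 0.11 higher with HGF (adjusted p = 0.00013), with no overlap of the arrays in either comparison. The first of these had a fold change of 1.51, just past the limit, and its second probe, at 0.58, was just inside it. The difference went under the fold limit, to 0.54, when replicate 1 of 16HBE-WT was left out, to 0.53 when replicate 3 of 16HBE-ex14 was, and to 0.57 when its replicate 4 was, with adjusted p values of 0.00589, 0.00497 and 0.00561. It was 0.50 and under the limit with quantile normalization too (adjusted p = 0.00174).

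EREG, a ligand of EGFR and ERBB4, differed mainly by genotype. The 16HBE-WT arrays read 0.71, 0.55, 0.70 and 1.05, and those of 16HBE-ex14 read 1.70, 1.66, 1.92 and 1.94. With HGF the arrays read 1.13, 1.34, 0.97 and 1.24 in 16HBE-WT and 1.96, 1.94, 2.31 and 2.22 in 16HBE-ex14. Every 16HBE-ex14 array was above every 16HBE-WT array, whether or not HGF was given. The difference was 1.05 ± 0.13 without HGF (adjusted p = 7.52e-05), a fold change of 2.08, and 0.94 ± 0.13 with HGF (adjusted p = 0.000161). The HGF differences were 0.30 (95% interval 0.03 to 0.58, adjusted p = 0.298) in 16HBE-ex14 and 0.42 (0.14 to 0.70, adjusted p = 0.886) in 16HBE-WT, and neither passed the test. Averaged over the genotypes EREG was 0.36 ± 0.09 higher with HGF (95% interval 0.16 to 0.56, limma adjusted p = 0.0518), which passed neither limit. In order of level, 16HBE-WT and 16HBE-WT+HGF overlapped, as did 16HBE-ex14 and 16HBE-ex14+HGF.

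EPGN, an EGFR ligand expressed in epithelia, had the widest spread of the members. Its arrays read 0.50, 0.72, -0.63 and 0.69 in 16HBE-WT and 0.86, 0.88, 1.54 and -0.21 in 16HBE-WT+HGF. In 16HBE-ex14 they read 1.89, 1.06, 1.79 and 1.16, and in 16HBE-ex14+HGF 1.59, 2.49, 2.46 and 3.03. The lowest 16HBE-WT array and the lowest 16HBE-WT+HGF array both lay well below the others of their groups. With HGF in both genotypes 16HBE-ex14 was 1.62 ± 0.40 higher (adjusted p = 0.00921), a fold change of 3.08. Without HGF the difference was 1.15 ± 0.40 (adjusted p = 0.0576) and was not called, although no 16HBE-ex14 array fell below a 16HBE-WT array. It passed both limits without 16HBE-ex14+HGF replicate 1, 16HBE-WT+HGF replicate 3 or 16HBE-WT+HGF replicate 4, at adjusted p values of 0.0462, 0.0466 and 0.0349, and a value of 1.15 each time, since these arrays enter only the estimate of the spread. It was also called in 5 of 13 other ways of processing, with normexp background correction (1.01, adjusted p = 0.015), scaling to the array median (1.29, adjusted p = 0.0379) or to spike-in probes (1.28, adjusted p = 0.0184), no scaling (1.53, adjusted p = 0.00288) and only probes above background on every array (1.15, adjusted p = 0.0347). The HGF difference was 0.92 in 16HBE-ex14 (95% interval 0.07 to 1.77, adjusted p = 0.301).

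BTC, which binds EGFR and ERBB4, was higher in 16HBE-ex14 by 0.56 ± 0.12 without HGF (adjusted p = 0.00375) and by 0.46 ± 0.12 with HGF (adjusted p = 0.011), both under the fold limit. The 16HBE-WT arrays ranged from -0.94 to -0.46 and the 16HBE-ex14 arrays from -0.29 to 0.01, without overlap. The fold limit was passed when replicate 1 or 2 of 16HBE-ex14 (0.61 each) or replicate 4 of 16HBE-WT (0.65) was left out. BTC was called with scaling to the array median (0.70) or to spike-in probes (0.69) as well, and with no scaling without HGF (0.93) and with HGF (0.845). With HGF the level of BTC differed by -0.17 in 16HBE-ex14 (95% interval -0.42 to 0.08) and by -0.07 in 16HBE-WT (-0.32 to 0.18).

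These 4 ligand genes lie in order EPGN, EREG, AREG and BTC on chromosome 4, with probes 0, 75.2, 141.7 and 497.1 kb from that of EPGN. The single other tested gene between them, LOC107986229, differed by 0.39 between the genotypes without HGF (adjusted p = 0.567) and by -0.31 with HGF (adjusted p = 0.662). In the wider window of 1 Mb on each side of the AREG probe, 0 of 19 other tested genes were called higher in 16HBE-ex14 without HGF and 1 was called lower, with a median of 0.04. In the same window around EGFR 1 of 26 genes was called higher and 1 lower, with a median of -0.01. Around TGFA 0 of 34 were called higher and 5 lower, with a median of -0.21. Around NRG1 1 of 8 was called higher and 0 lower, with differences from -0.45 to 3.48. The higher and lower calls were 5 and 1 of 54 around HBEGF, 1 and 4 of 65 around ERBB2 and 2 and 3 of 75 around ERBB3. Of all genes 4.48% were called higher and 4.77% lower in this comparison. This window was chosen after the values were seen.

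**Figure D2:**
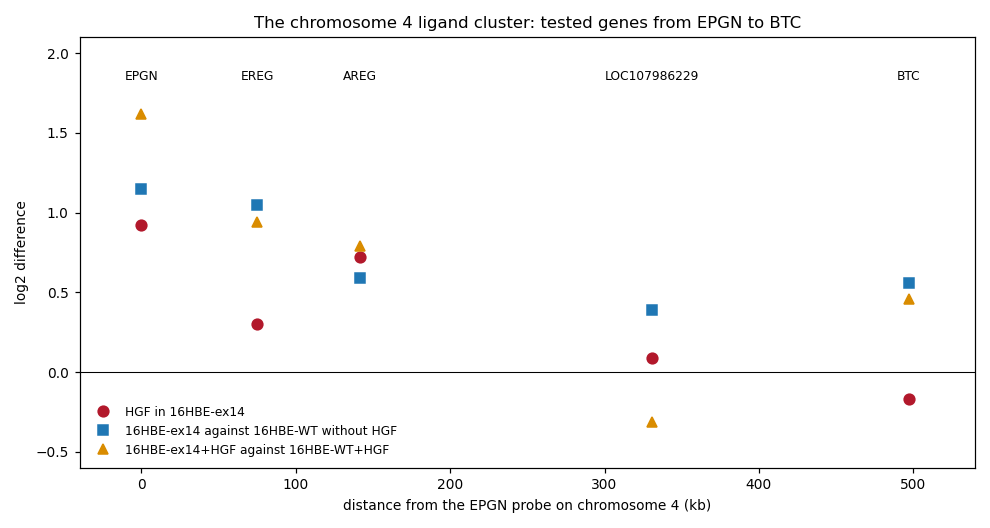
Log2 difference (vertical axis) against distance from the EPGN probe in kb for the tested genes of the chromosome 4 cluster, by brightest probe, in 3 comparisons. EPGN, EREG, AREG and BTC were all above 0 between the genotypes, between 0.46 and 1.62, whereas with HGF in 16HBE-ex14 the values ran from 0.92 for EPGN to -0.17 for BTC.

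NRG1, the neuregulin ligand of ERBB3 and ERBB4, rose in 16HBE-ex14 by all 3 of its tested probes. By the brightest (A_33_P3392192, chr8:32625320-32625379, hg19) the 16HBE-WT arrays read -0.66, -0.23, -0.56 and -0.26, and the 16HBE-WT+HGF arrays -0.22, -0.41, -0.17 and -0.36. The 16HBE-ex14 arrays read 0.31, 0.16, 0.90 and 0.37, and the 16HBE-ex14+HGF arrays 1.19, 1.19, 1.75 and 1.59. The 3 levels, with both 16HBE-WT groups overlapping at the bottom, did not overlap. HGF raised NRG1 in 16HBE-ex14 by 1.00 ± 0.17 (adjusted p = 0.00601), a fold change of 1.99. In 16HBE-WT the difference was 0.14 (95% interval -0.23 to 0.51). Between the genotypes NRG1 was higher in 16HBE-ex14 by 0.86 ± 0.17 without HGF (adjusted p = 0.00268) and by 1.72 ± 0.17 with HGF (adjusted p = 1.03e-05), a fold change of 3.29. The other probes rose with HGF in 16HBE-ex14 by 1.10 (A_23_P315815, adjusted p = 0.0266) and 0.97 (A_33_P3284345, adjusted p = 0.0348), with overlapping arrays. Both lost that call when replicate 1, 2 or 4 of 16HBE-ex14 or replicate 2, 3 or 4 of 16HBE-ex14+HGF was left out, at adjusted p values up to 0.128, where the differences were 0.84 to 1.11. With only the arrays compared in the fit the brightest probe lost its call as well (adjusted p = 0.0669).

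HBEGF, a ligand released rapidly by shedding, varied strongly among arrays. Its levels were 0.75, 0.94, 1.69 and 1.16 in 16HBE-WT and 0.98, 1.22, 1.32 and 2.08 in 16HBE-WT+HGF. They were 1.47, 1.70, 1.29 and 1.63 in 16HBE-ex14 and 2.35, 1.39, 2.49 and 2.19 in 16HBE-ex14+HGF. In 16HBE-ex14+HGF 3 of the 4 arrays were above every other 16HBE-ex14 array, and replicate 2 was not. The HGF difference there was 0.58 ± 0.27 (adjusted p = 0.348), and the difference between the genotypes with HGF was 0.70 ± 0.27 (adjusted p = 0.0842). The latter passed both limits without 16HBE-ex14+HGF replicate 2 (0.94, adjusted p = 0.0197) or without 16HBE-WT+HGF replicate 4 (0.93, adjusted p = 0.0232). It also passed them with normexp background correction (0.70, adjusted p = 0.0134), with slide as a block (0.70, adjusted p = 0.0436) and with no scaling (1.09, adjusted p = 0.0225).

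TGFA, an EGFR ligand, was called in no comparison. Its brightest probe (A_33_P3408203, chr2:70683472-70683531, hg19) read lower on the second slide in all 4 groups, by 0.36 to 0.64, and its groups overlapped in each of the 4 comparisons of 2 groups. Without HGF 16HBE-ex14 differed by -0.43 from 16HBE-WT (95% interval -0.83 to -0.02, adjusted p = 0.14), at -0.56 on the first slide and -0.29 on the second. The second probe differed by -0.49 (adjusted p = 0.0538).

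EGFR, the receptor of 6 of these ligands, was higher in 16HBE-ex14 and changed little with HGF. By its brightest probe (A_23_P215790, chr7:55274841-55274900, hg19) the 16HBE-WT arrays read 2.59, 2.67, 2.85 and 2.78 and the 16HBE-WT+HGF arrays 2.98, 2.82, 2.59 and 2.88. The 16HBE-ex14 arrays read 3.44, 3.35, 3.79 and 3.46 and the 16HBE-ex14+HGF arrays 3.62, 3.85, 3.69 and 3.67. Both 16HBE-WT groups overlapped, both 16HBE-ex14 groups overlapped, and the genotypes were apart. The difference between the genotypes was 0.79 ± 0.11 without HGF (adjusted p = 0.000264), a fold change of 1.73, and 0.89 ± 0.11 with HGF (adjusted p = 8.31e-05). With HGF the level differed by 0.20 in 16HBE-ex14 (95% interval -0.05 to 0.44) and by 0.10 in 16HBE-WT (-0.15 to 0.34). The other EGFR probes, annotated to other transcripts of the gene, differed less between the genotypes without HGF, by 0.52 ± 0.13 (A_33_P3351944, adjusted p = 0.012) and 0.36 ± 0.20 (A_33_P3351955, adjusted p = 0.255). The mean of all 3 was 0.56 and lay under the fold limit. With HGF the last of these probes was called at 0.72 (adjusted p = 0.0197).

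ERBB2, the receptor without a ligand, was called in no comparison, except with no scaling between the genotypes without HGF (0.645, adjusted p = 0.0114), and its probes went different ways. The brightest (A_23_P89249, chr17:37884829-37884888, hg19, averaged over 10 spots) read 3.32, 3.12, 3.17 and 3.32 in 16HBE-WT and 3.40, 3.61, 3.34 and 3.66 in 16HBE-ex14, a difference of 0.27 ± 0.09 (adjusted p = 0.0581). The other (A_33_P3292596, chr17:37851136-37851195, hg19) differed by -0.48 ± 0.14 (adjusted p = 0.0251), under the fold limit. With HGF the brightest probe went to 3.155, 3.102, 3.168 and 3.217 in 16HBE-ex14, below all 4 unstimulated arrays, and the difference of -0.34 ± 0.09 did not pass the test (adjusted p = 0.0685). In 16HBE-WT it was -0.06 (95% interval -0.26 to 0.14). The other probe did not fall with HGF in 16HBE-ex14 (0.02, 95% interval -0.28 to 0.31). Between the genotypes with HGF the brightest probe differed by -0.01. The other differed by -0.54 ± 0.14 there (limma adjusted p = 0.0118), under the fold limit.

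ERBB3, the NRG1 receptor, had values below 0 in all comparisons by its brightest probe, and none passed the fold limit. Its brightest probe (A_23_P349416, chr12:56496160-56496219, hg19) read 2.47, 2.16, 2.31 and 2.37 in 16HBE-WT and 1.95, 2.09, 1.95 and 2.17 in 16HBE-WT+HGF. In 16HBE-ex14 it read 1.92, 2.05, 1.72 and 2.19, and in 16HBE-ex14+HGF 1.71, 1.30, 1.61 and 1.47, below every other array of the study. The HGF difference in 16HBE-ex14 was -0.45 ± 0.12 (adjusted p = 0.058), and a second probe (A_33_P3211569) gave -0.39 ± 0.09 (adjusted p = 0.0224). Averaged over the genotypes the brightest probe differed by -0.37 ± 0.08 (adjusted p = 0.031), and between the genotypes with HGF by -0.52 ± 0.12 (adjusted p = 0.00606). Without HGF the genotypes differed by -0.35 ± 0.12 (adjusted p = 0.0544) by the brightest probe and by 0.08 ± 0.09 by the second. Arrays of the groups were apart for 6 of 19 member probes with HGF in 16HBE-ex14 (8.88% of all probes), for 12 between the genotypes without HGF (21.3%) and for 14 with HGF (23.9%).

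**Figure D3:**
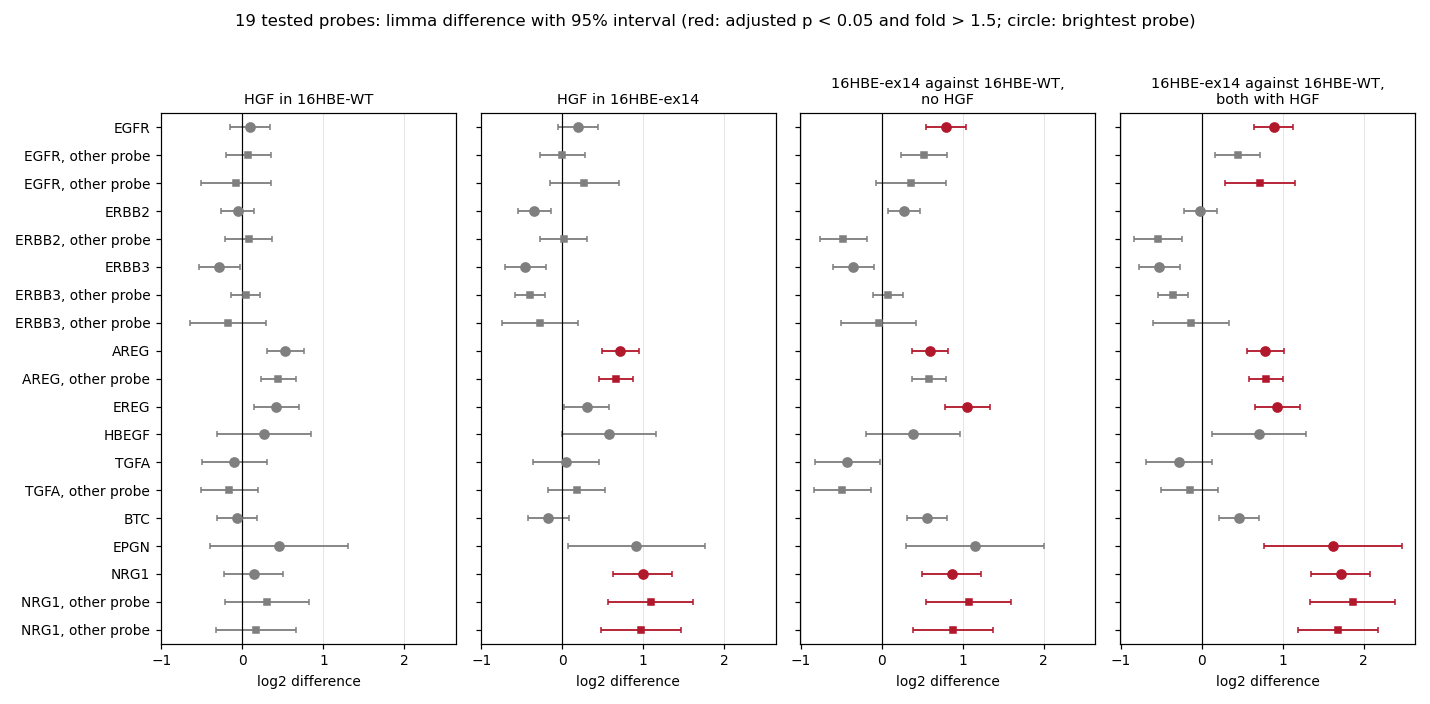
Log2 difference of each of the 19 tested probes with its 95% interval from limma in 4 comparisons, with the brightest probe of a gene as a circle, other probes as squares, and called probes in red. All called probes lie to the right of 0, 5 with HGF in 16HBE-ex14, 6 between the genotypes without HGF and 9 with HGF, and 0 with HGF in 16HBE-WT.

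**Figure D4:**
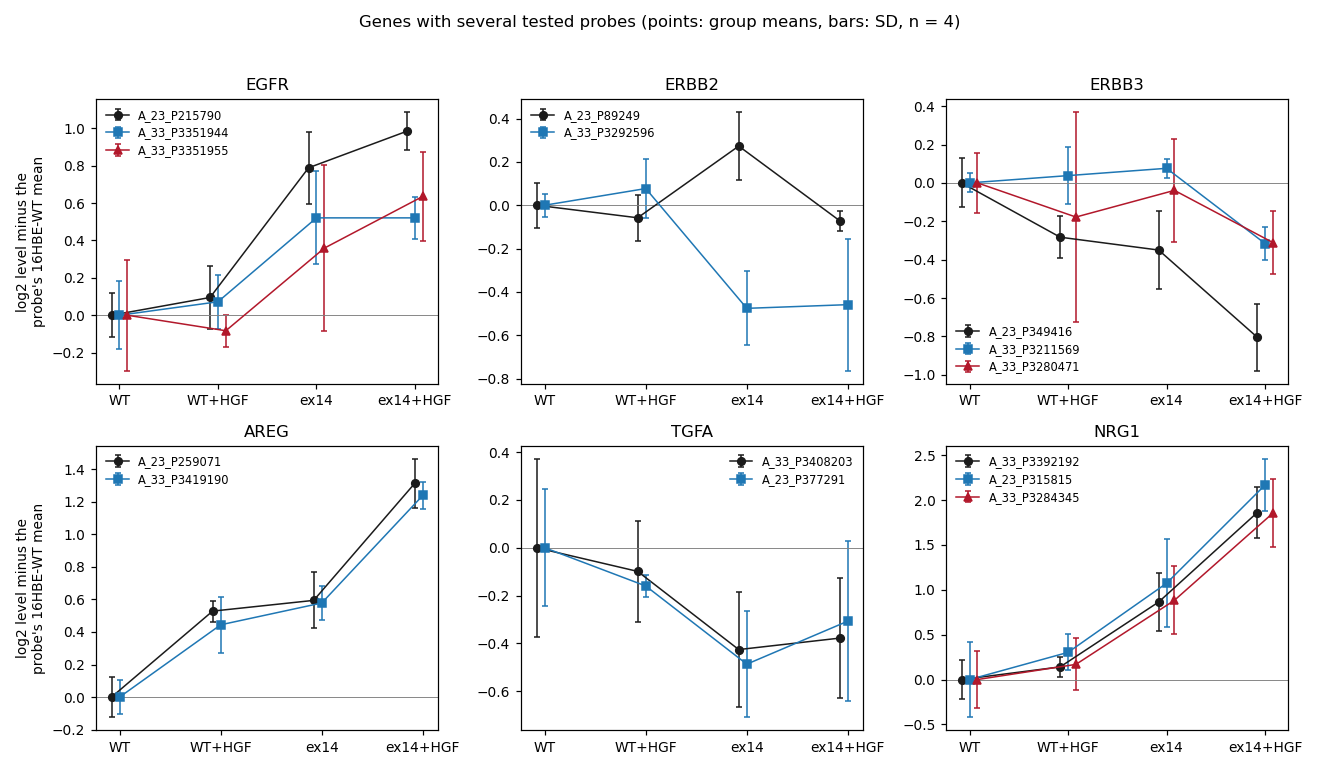
Group means minus the 16HBE-WT mean of the same probe (log2), with SD over 4 arrays, for the 6 genes with several tested probes; a colour is a probe. The AREG and NRG1 probes moved together over the groups, those of EGFR rose by 0.36 to 0.79 in 16HBE-ex14, and those of ERBB2 moved apart there, by 0.27 and -0.48.

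Whether the HGF response itself differed between the genotypes was tested as the difference of the responses in the same fit. Of the 19 member probes 0 were called in limma, against 0% of all 34600 probes, while 5 member probes and 1586 of all probes had an unadjusted p below 0.05. For NRG1 the estimated response was larger in 16HBE-ex14 by 0.86 ± 0.24 (95% interval 0.34 to 1.37), which did not pass the test (limma adjusted p = 0.648). For AREG the responses differed by 0.19 (-0.13 to 0.51), for EREG by -0.12 (-0.51 to 0.28) and for EGFR by 0.10 (-0.24 to 0.45). ERBB3 gave -0.43 ± 0.12 by its second probe (adjusted p = 0.648) and -0.17 ± 0.17 by its brightest. The call of NRG1 and AREG in 16HBE-ex14 alone therefore does not show that their responses differed between the genotypes.

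The other genes of the pathway were taken from lists, each gene by its brightest probe. The lists were chosen with earlier results of these data known, so their counts are a description and not an independent check. Of the remaining EGF-family genes, ERBB4 and EGF were above background on 0 of 16 arrays and NRG3 on 1, and NRG2 and NRG4 were tested and not called. Among 10 genes of ligand shedding, HGF in 16HBE-ex14 raised ADAM19, a metalloprotease known to cleave neuregulin, by 1.59 ± 0.23 (adjusted p = 0.00233), and lowered RHBDL2, a rhomboid protease, with a difference of -0.65 ± 0.12 (adjusted p = 0.0101), where 2.1% of all 26356 genes were called (1.13% higher and 0.968% lower). ADAM17, the main sheddase of AREG and TGFA, was 1.16 ± 0.16 in 16HBE-WT and 0.66 ± 0.11 in 16HBE-ex14 (SD, n = 4 each), a difference of -0.50 under the fold limit (adjusted p = 0.0048). Of 15 inhibitor and turnover genes 0 were called with HGF in limma, and between the genotypes without HGF 1 was lower and 14 were not called, where 9.25% of all genes were called (4.48% higher and 4.77% lower). That gene was LRIG1, a membrane protein that promotes degradation of ERBB receptors. It read 0.68 ± 0.09 in 16HBE-WT and -1.74 ± 0.12 in 16HBE-ex14 (SD, n = 4 each), a difference of -2.42 ± 0.10 (adjusted p = 1.44e-09), and -2.60 ± 0.10 with HGF (adjusted p = 1.01e-09).

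Of 20 adaptor and RAS-ERK genes 0 were called with HGF in 16HBE-ex14 or between the genotypes without HGF, and MAPK3, the gene of ERK1, was called lower in 16HBE-ex14 with HGF in both genotypes (-0.59, adjusted p = 0.000814), where 10.6% of all genes were called (5.36% higher and 5.28% lower). Of 15 ERK target genes 5 rose with HGF in 16HBE-ex14, 0 fell and 10 were not called, where 2.1% of all genes were called (1.13% higher and 0.968% lower). They were the feedback inhibitors DUSP6 (1.25 ± 0.29, adjusted p = 0.0314) and SPRY4 (1.29 ± 0.29, adjusted p = 0.0262) and the transcription factor genes ETV4 (1.24), ETV5 (0.79) and FOSL1 (0.95). The median of the list was 0.44, where the median of all genes was 0.06. In 16HBE-WT the median was 0.13 and 0 of 15 were called in limma, as were 0% of all genes. Without HGF 3 of the 15 were higher in 16HBE-ex14, namely the phosphatase gene DUSP5 (1.01 ± 0.24, adjusted p = 0.00962), PHLDA1 (0.84 ± 0.16, adjusted p = 0.00212) and FOSL1 (0.60 ± 0.20, adjusted p = 0.0468), where 9.25% of all genes were called (4.48% higher). With HGF in both genotypes 7 of the 15 were called higher and 0 lower, against 5.36% and 5.28% of all genes.

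**Figure D5:**
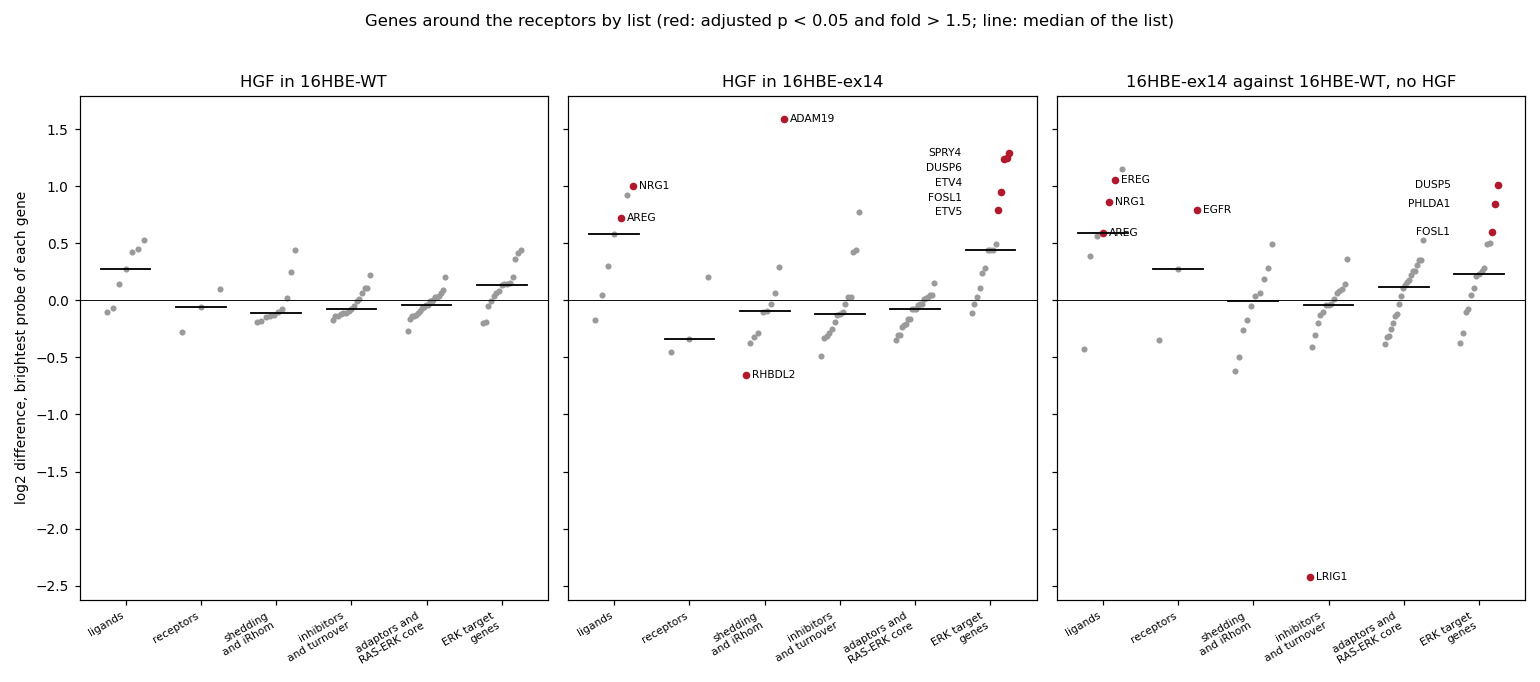
Log2 difference of each tested gene by its brightest probe (vertical axis), by list, in 3 comparisons; points are genes, called genes are red and named, and a line is the median of the list. The ERK target genes had a median of 0.44 with HGF in 16HBE-ex14 and LRIG1 stood lowest between the genotypes at -2.42.

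The genes with the pattern most like that of a called member were found by the root mean square of the difference between the centred levels over the 16 arrays, as a description. For EGFR, whose levels had an SD of 0.46 over the arrays, the 3 nearest were RBM10, an RNA-binding protein gene, at 0.09 and a pair of Ensembl transcripts without a gene symbol. AREG (SD 0.50) was nearest to CDH4, a cadherin gene, at 0.14, ADAM8, a metalloprotease gene, at 0.15 and EEF1AKMT4 at 0.15. SRGAP1 at 0.12, ADM2 at 0.12 and an Ensembl transcript at 0.145 were nearest to EREG (SD 0.57). For NRG1 (SD 0.79) DCBLD2 at 0.17, FKBP11 at 0.19 and CDK17 at 0.19 were nearest, and for EPGN (SD 0.97) PRPH at 0.32, FKBP11 at 0.37 and RPL22L1 at 0.39. All share the scaling and the 16 arrays.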

How the data were processed

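Expression was measured in 16 samples on single-colour Agilent arrays with probes of 60 bases. The authors deposited Feature Extraction 10.7.3.1 output (version from the submitters' processing notes), in which the intensity of a spot is a linear processed signal after background subtraction, and arrays are not scaled to each other. A second deposited table, of the whole series, held the same values at all 62976 spots.

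From these, outlier spots were left out, log2 values taken, each array's 75th percentile subtracted and the spots of a probe averaged. Tested were the 34600 of 58201 probes that the scanner software marked well above background on 4 or more arrays. limma 3.58.1 in R 4.3.3 was fitted with 1 mean per group over all 16 arrays, and p values were adjusted by Benjamini-Hochberg over all tested probes. A gene with several probes was represented by the brightest, and the others are given where they differ. Precision is limited by the 4 arrays of each group. In simulated data for HGF in 16HBE-ex14 over 34564 probes, 44% of probes changed by 0.75, 52% by 1, 82% by 1.5 and 96% by 2 (log2) were called. Each share rests on 50 changed probes, while the remaining probes had no change and the noise was independent between arrays. The shares hold for that setting only. Names are those of the array files on hg19: 18 member probes with a RefSeq accession had the same symbol in RefSeq, and 2 carried Ensembl accessions. The text names every member, ERBB4, EGF, MET and HGF, list genes called with HGF in 16HBE-ex14 or between the genotypes without HGF, the tested genes within the chromosome 4 cluster, and the 3 genes nearest in pattern to each called member; ADAM17, MAPK3, NRG2, NRG3, NRG4 and the marker genes were named after their values were seen. The members, lists and rules were chosen with earlier results of these data known, and promoters came from RefSeq (GRCh38.p14). Alternatives were background correction, scaling, filters, slide or array row as a block, prior, call rule and leaving out arrays. Figures used Python 3.11.15, pandas 2.3.3 and matplotlib 3.10.9. The pairing by array row was checked by correlating the deviations from group means of arrays in a row.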

Additional observations from a re-analysis of the deposited data

Results flagged for a closer look

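Of 76 groups of 4 arrays examined for the 19 tested probes, 3 held an array that stood apart from the other 3 of its group by Dixon's criterion, where chance gives about 1 in 20. The EGFR probe A_33_P3351955 read -1.349 in 16HBE-WT+HGF replicate 1, above the other 3 at -1.523 to -1.518, whose own spread was small. EPGN read -0.628 in 16HBE-WT replicate 3, where the other 3 lay between 0.501 and 0.717. The NRG1 probe A_23_P315815 read 0.315 in 16HBE-ex14 replicate 3, where the others lay between -0.71 and -0.613, and that array also read highest of its group with both other tested NRG1 probes.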

How the results depend on the processing

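The counts of called member probes moved as follows. For HGF in 16HBE-ex14, 5 probes became 1 with scaling to the array median, 1 with no scaling, 3 with no filter on dim probes and 1 with only the arrays compared, and leaving out an array gave 3 to 5. Between the genotypes without HGF, 6 became 10 with scaling to the array median, 10 with scaling to the E1A spike-ins, 12 with no scaling and 10 with no fold limit, and 4 (without 16HBE-WT replicate 1) to 9 (without 16HBE-WT replicate 2) with an array left out. With HGF in both genotypes 9 became 14 with no fold limit and 8 to 11 with an array left out. For the mean HGF response 2 became 1 with normexp, 0 with scaling to the array median, 0 with the spike-ins, 0 with no scaling, 1 with no filter, 5 with no fold limit, and 1 to 4 with an array left out. HGF in 16HBE-WT and the difference of the responses stayed at 0 to 0, while of all probes 4 were called for the difference of the responses with normexp, 4 with a trended and robust prior, 11 without 16HBE-ex14 replicate 3 and 1 without 16HBE-WT+HGF replicate 3, and 1 was called for HGF in 16HBE-WT without 16HBE-WT+HGF replicate 2. The setting without scaling was added after the data were seen. It moved the median of all probes to 0.35 and 0.38 between the genotypes, scaling to the array median moved it to 0.12 and 0.09, and to -0.11 for HGF in 16HBE-ex14, where it was -0.02, 0 and 0.06 here. The cause of the shifts was not tested. Over all probes, the calls for HGF in 16HBE-ex14 were 687, and 234 with no scaling, 247 with only the arrays compared and 413 with normexp. With an array left out they were 347 to 968, lowest without replicate 2 (347) or 4 (365) of 16HBE-ex14 or replicate 3 (363) or 4 (439) of 16HBE-ex14+HGF. Those between the genotypes without HGF were 3263, 7098 with no scaling and 1488 with normexp.

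Values near 0 changed sign. ERBB2 between the genotypes with HGF was 0.064 with normexp, 0.078 with the array median, 0.058 with the spike-ins, 0.369 with no scaling, and -0.056 to 0.023 with an array left out, above 0 for replicate 2 of 16HBE-ex14+HGF (0.006) and replicates 2 (0.006) and 4 (0.023) of 16HBE-WT+HGF. ERBB2 without HGF was -0.102 as the mean of its probes. TGFA with HGF in 16HBE-ex14 was -0.114 with the array median, -0.066 with the spike-ins, and -0.046 to 0.15 with an array left out, below 0 for replicate 2 of 16HBE-ex14+HGF (-0.046) and replicate 4 of 16HBE-ex14 (-0.033). Between the genotypes with HGF it was 0.103 with no scaling. ERBB3 between the genotypes without HGF was 0.022 with no scaling.

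With array row as a replicate block the counts of called member probes were 5, 0, 6, 9, 0 and 2 for HGF in 16HBE-ex14, HGF in 16HBE-WT, the genotypes without and with HGF, the difference of the responses and the mean response, and the block changed none of these counts. Arrays of a row had correlated deviations of 0.03 to 0.27, and in 5 of 16 checks an array correlated best with that of its own row. The rows were therefore not treated as pairs. In every check the best partner lay on the same slide, and the main fit had no slide term. With slide as a block the calls over all probes went from 687 to 820 for HGF in 16HBE-ex14. Between the genotypes they went from 3263 to 3535 without HGF and from 3739 to 4109 with HGF. The lowest log2 level of a probe marked well above background ran from -4.93 to -3.76 over the arrays, with a median of -4.39. Transcripts below that level of an array were not measurable on it.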
